A study of Mus musculus with 265 samples.

Results

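The genes of 10 transcription factors and inhibitors of the B lineage and the E protein network, Pax5, Ebf1, Tcf3, Tcf4, Tcf12, Id2, Id3, Lef1, Bach2 and Runx1, were examined for chromatin accessibility in single mouse pre-B cells. A region of the matrix was counted for a gene when its midpoint lay within 50 kb of that gene's start site and no other protein-coding start site was closer. This gave 41 of the 20103 regions. The most upstream annotated start of each gene served as its start site. Regions within 1 kb of it were called promoter regions and the others distal regions, so that 10 promoter and 31 distal regions were compared. Pax5 had 9 regions, Ebf1 and Bach2 6 each, Runx1 5, Lef1 4, Tcf12, Id2 and Id3 3 each, and Tcf3 and Tcf4 1 each. Tcf3 had no distal region, and Lef1 and Tcf4 had no promoter region by this definition.

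The cells are B3 cells, a mouse pre-B line carrying Ikaros fused to ERt2, an estrogen receptor domain that holds the protein inactive until 4-hydroxytamoxifen is given. All cells carry the fusion, and the 0-hour cells had received no drug. The 24-hour cells had been treated with 4-hydroxytamoxifen, listed at 20 mM in the labels, with a further dose at about 12 hours. Because the untreated line is the only control, time in culture and the drug itself cannot be told apart from Ikaros. Single cells were captured on the Fluidigm C1 and their open chromatin was tagged by Tn5 transposase (single-cell ATAC-seq), in runs 1 and 2 for 0 hours and runs 3 and 4 for 24 hours. The deposited matrix holds 48, 47, 60 and 72 cells of these runs. The labels list further cells that the matrix lacks, nearly all of them in runs 2 and 3. Cells of a run share their capture, so the run was the replicate (n = 2 per time-point), and the sources used here do not say whether runs came from separate cultures. The p-values therefore measure the spread between these runs, which may be technical.

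Pax5 and Ebf1 encode the factors that specify and hold B-lineage identity, Ebf1 by opening chromatin early and Pax5 by activating B-cell genes and silencing those of other lineages. Tcf3, Tcf4 and Tcf12 encode the E proteins, which bind E boxes as dimers. Id2 and Id3 encode inhibitors that pair with E proteins but cannot bind DNA. Lef1 acts in Wnt signalling, Bach2 is a repressor that works in B-cell development and in mature B cells, and Runx1 is needed early, upstream of Ebf1. Ikaros itself is a zinc-finger factor required for the passage from cycling to resting pre-B cells. An accessible promoter or distal region shows that Tn5 could reach the DNA there, and carries no direct measure of transcription.

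The sequences of 10 distal regions are shown, because they are the DNA on which the values below were measured. They are the most often detected distal region of each gene that has one free of annotated untranslated sequence (for Runx1, +2386 and -48084 tied at 11 cells and the one nearer the start is shown), followed by a Bach2 and a Runx1 region that were higher in both 0-hour runs. Each is the plus strand of GRCm38 (mm10), 5′ to 3′, and is named by its gene and the distance of its midpoint from the start site in bp, with plus for downstream. The deposited names leave open whether starts count from 0 or 1, and they were read as 1-based with both ends included, so the first base of each run could be 1 base early. Capitals mark GGGAA, the core recognised by Ikaros, and E boxes (CANNTG), on either strand.
Pax5 +5914, intron, chr4:44704498-44704649: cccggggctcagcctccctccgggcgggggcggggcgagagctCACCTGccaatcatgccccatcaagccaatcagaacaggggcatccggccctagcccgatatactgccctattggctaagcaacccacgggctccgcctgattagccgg
Ebf1 +7506, intron, chr11:44624749-44624898: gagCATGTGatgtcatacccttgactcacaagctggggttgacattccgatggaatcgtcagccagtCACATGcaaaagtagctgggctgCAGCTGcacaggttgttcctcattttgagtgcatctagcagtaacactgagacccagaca
Tcf12 -21319, outside the gene, chr9:72133117-72133264: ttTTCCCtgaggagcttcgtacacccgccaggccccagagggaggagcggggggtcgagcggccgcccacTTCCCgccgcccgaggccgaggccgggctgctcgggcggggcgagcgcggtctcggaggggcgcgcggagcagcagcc
Id2 +4707, outside the gene, chr12:25092389-25092478: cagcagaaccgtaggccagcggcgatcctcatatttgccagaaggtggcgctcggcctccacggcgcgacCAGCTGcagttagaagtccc
Id3 +4471, outside the gene, chr4:136147896-136148041: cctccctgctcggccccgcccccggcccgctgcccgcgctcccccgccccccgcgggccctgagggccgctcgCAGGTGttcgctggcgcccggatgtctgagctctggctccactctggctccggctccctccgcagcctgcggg
Lef1 +7621, intron, chr3:131118019-131118165: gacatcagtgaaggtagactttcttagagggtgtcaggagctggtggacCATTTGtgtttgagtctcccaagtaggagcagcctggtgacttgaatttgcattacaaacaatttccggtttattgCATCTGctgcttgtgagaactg
Bach2 +10477, intron, chr4:32249228-32249334: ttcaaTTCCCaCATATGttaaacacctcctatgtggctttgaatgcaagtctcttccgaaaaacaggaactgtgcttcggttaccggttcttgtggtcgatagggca
Runx1 +2386, intron, chr16:92823696-92823831: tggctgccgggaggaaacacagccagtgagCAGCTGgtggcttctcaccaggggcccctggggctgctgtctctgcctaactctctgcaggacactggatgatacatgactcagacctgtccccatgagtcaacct
Bach2 +11152, intron, chr4:32249903-32250010: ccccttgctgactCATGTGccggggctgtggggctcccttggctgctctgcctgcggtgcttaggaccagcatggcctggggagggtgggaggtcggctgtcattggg
Runx1 +18215, intron, chr16:92807871-92807997: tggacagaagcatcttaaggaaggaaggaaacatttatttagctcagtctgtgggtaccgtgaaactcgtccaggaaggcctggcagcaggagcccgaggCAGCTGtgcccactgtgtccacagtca

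Of these sequences, 8 of 10 hold only E boxes, Bach2 +10477 holds 1 Ikaros core and 1 E box side by side, and Tcf12 -21319 holds 2 Ikaros cores and no E box. The Ebf1 +7506 region holds 3 E boxes, the last of them CAGCTG. Motifs were also counted in a window of 150 bp around the midpoint of every region, on both strands. The E box CANNTG was found in 26 of the 41 regions (63.4%) against 49.1% of all regions, in 22 of 31 distal regions against 58.5% of all distal regions and in 4 of 10 promoter regions against 34.9% of all promoter regions. CAGCTG, itself counted among the CANNTG matches, was found in 9 regions (22%) against 13.3%. By kind, it was found in 8 distal regions against 16.8% of all distal regions, and in 1 promoter region against 7.93%. GGGAA was found in 16 regions (39%) against 39.2%. The core TCCCNNGGG of EBF1 was found in 1 region, the distal Pax5 +5121, against 8.62% of all regions and 11.4% of all distal regions. TGTGGT, the RUNX core, was found in 4 regions against 14.7%, and CTTTGA, the LEF/TCF core, in 3 against 7.03%. All of these were distal regions, and over all distal regions 20.4% held TGTGGT and 8.43% CTTTGA. The Tcf3 promoter window held 3 GGGAA cores, more than any other of the 41 windows. These are letter matches, which may or may not be bound.

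The values behind all of these regions were sparse. Runs 1 to 4 summed to 164357, 92639, 122586 and 142611 counts over all regions, with a median per cell of 2898 counts in run 1 and from 1676 to 1839.5 in the others. A region was detected in a mean of 11% of the cells of run 1 against 6.35% to 6.68% in runs 2 to 4, and raw shares are not adjusted for this. The 41 regions took 0.145% to 0.194% of each run's counts. A cell had a median of 4, 2, 3 and 2 of the 41 regions open in runs 1 to 4, and 6.25%, 19.1%, 20% and 16.7% of cells had none. After every cell was thinned to 837 counts, with 23 cells too shallow left out, the mean number per cell was 1.56, 0.957, 1.47 and 1.38. The values are at most 2 per region and cell, and 52.1% of those above 0 in the 41 regions were 2, against 53.4% over all regions. Intervals on a share of cells are exact Clopper-Pearson intervals at 95% and include no error beyond counting. Promoter regions lay in the matrix for 5 of 7 pre-B marker genes, Cd79b at 13.2% of cells, Cd79a at 11.5%, Igll1 at 9.69%, Vpreb1 at 7.49% and Blnk at 3.52%. None of 7 T-cell and none of 5 erythroid marker genes had one, and of 7 myeloid genes only Lyz2 did, at 2.64%. Their CPM, counts scaled to the total of the run, in runs 1 to 4 were 365, 443, 334 and 189 for the pre-B genes and 12.2, 43.2, 0 and 7.01 for Lyz2.

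**Figure D1:**
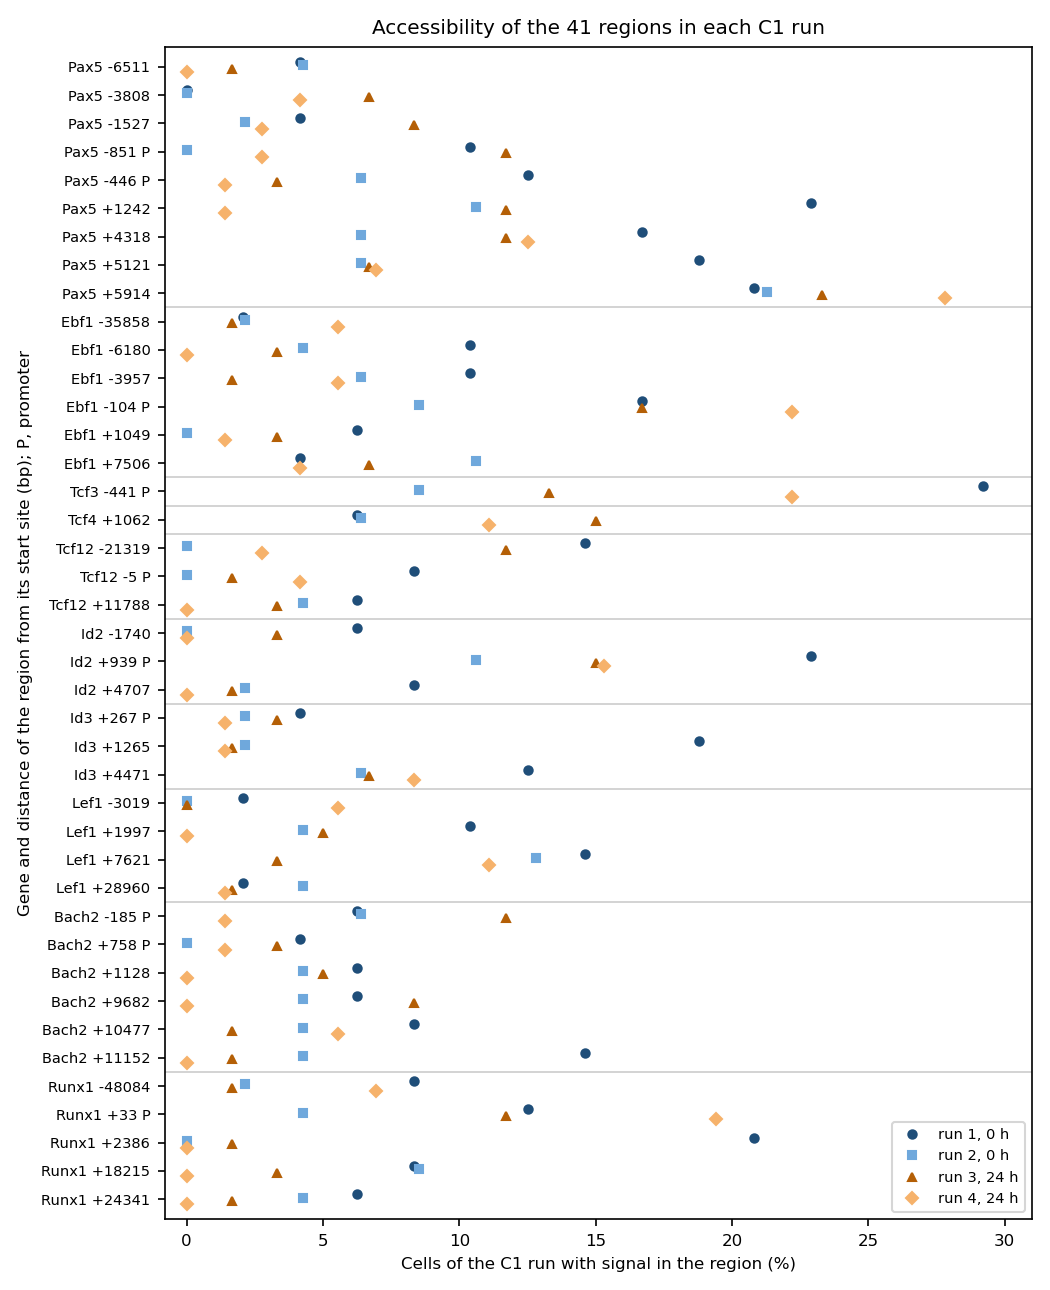
Share of the cells of each C1 run with signal, in percent (x axis), for the 41 regions, named by gene and signed distance from the start site in bp (y axis, P for promoter regions). Each symbol is 1 run. Pax5 +5914 lies at 20.8% or more in all 4 runs, and run 4 lies at 0 for 12 of the 31 distal regions.

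By cells pooled over the 4 runs, the region open in the most cells of the 41 belonged to Pax5, although in run 1 Tcf3 -441, Pax5 +1242 and Id2 +939 were open in larger shares. The region 5914 bp downstream of the start site, in an intron, was open in 20.8%, 21.3%, 23.3% and 27.8% of cells of runs 1 to 4, or 54 cells in all. Of all distal regions, 99.3% were open in fewer cells. In these shares the 24-hour runs did not overlap the 0-hour runs, and after thinning the shares were 4.17%, 17.4%, 8.51% and 19%, in which the time-points overlapped. This region overlaps the annotated gene 5730488B01Rik and lies 567 bp upstream of another annotated Pax5 transcript start, so it is distal only with respect to the outermost start. A further 3 regions lay in introns closer to the start site. Pax5 +4318 was open in 16.7%, 6.38%, 11.7% and 12.5% of cells, Pax5 +5121 in 18.8%, 6.38%, 6.67% and 6.94%, and Pax5 +1242 in 22.9%, 10.6%, 11.7% and 1.39%. For the last of these, 11 cells were counted in run 1 and 1 in run 4, and runs 2 and 3 lay together.

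The 2 promoter regions of Pax5 were open in fewer cells of each run than Pax5 +5914. Pax5 -851 (chr4:44711279-44711397) was open in 10.4%, 0%, 11.7% and 2.78% of cells, with 1 high and 1 low run at each time-point. Pax5 -446 (chr4:44710859-44711008) was open in 12.5%, 6.38%, 3.33% and 1.39%, so that the 0-hour runs were the 2 highest. Its log2 change from 0 to 24 hours was -1.74 (SE 1.10), with an adjusted p of 0.561 by edgeR's quasi-likelihood test. Upstream, Pax5 -1527 was open in 4.17%, 2.13%, 8.33% and 2.78% of cells, with a log2 change of 1.39 (SE 1.18) and an adjusted p of 0.693. Pax5 -6511 was open in 5 cells, 4 of them at 0 hours.

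Pax5 -3808 (chr4:44714224-44714366) was the only one of the 41 regions without signal in a whole time-point, and it is described because of that value. It was open in 0 of 95 cells at 0 hours (95% interval 0% to 3.81%). In runs 3 and 4 it was open in 6.67% and 4.17% of cells, or 7 cells. With 3 counts assumed over the 0-hour runs, its normalised level of 50 CPM (counts scaled to the depth of the runs) at 24 hours was at least 4.34-fold higher. The adjusted p by edgeR was 0.21, the smallest among the 41 regions. The matrix holds only regions detected in at least 5 cells, and this one passed solely through its 7 cells at 24 hours. Its fold and its p-values are therefore shaped by that filter and are given as description only. Over all regions, 0.642% had no signal at 0 hours and 2.4% none at 24 hours.

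Of the 6 Ebf1 regions within 50 kb the promoter was open in the most cells. Ebf1 -104 (chr11:44617141-44617286) was open in 16.7%, 8.51%, 16.7% and 22.2% of cells of runs 1 to 4, and its 38 cells exceed those of 86.9% of all promoter regions. In normalised CPM it stood at 84.9 and 62.7 in the 0-hour runs and at 137 and 220 in the 24-hour runs, without overlap. The log2 change was 1.24 (SE 0.58), with an unadjusted p of 0.0366 and an adjusted p of 0.362 by edgeR, so this difference did not pass the threshold. Thinned cells gave 8.33%, 2.17%, 12.8% and 20.6%. The start of Gm37695, an annotated transcript model, lies within 1 kb of this region. The 5 distal regions of Ebf1 were open in 6 to 14 cells each. The most often detected, Ebf1 +7506 with its 3 E boxes, was open in 4.17%, 10.6%, 6.67% and 4.17% of cells, above the promoter in run 2, and its time-points overlapped. Ebf1 -3957 was open in 10.4%, 6.38%, 1.67% and 5.56%, and Ebf1 -6180 in 10.4%, 4.26%, 3.33% and 0%.

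Among the E protein genes, the Tcf3 promoter was open in 42 cells over the 4 runs, the most of the 10 promoter regions by this pooled count, although Ebf1 -104 was higher in normalised CPM in runs 2, 3 and 4. Tcf3 -441 (chr10:80434019-80434157) was open in 29.2%, 8.51%, 13.3% and 22.2% of cells, or 18.9% at 0 hours (95% interval 11.6 to 28.3) and 18.2% at 24 hours (12 to 25.8). In these shares the lowest and the highest run were both 0-hour runs. In normalised CPM it stood at 127, 41.8, 88.9 and 154 in runs 1 to 4, and the time-points overlapped on both scales. Thinned cells gave 6.25%, 2.17%, 6.38% and 12.7%, where the 24-hour runs lay above the 0-hour runs by a small margin over run 1. The Tcf12 promoter region (chr9:72111803-72111950), which overlaps the 5′ untranslated sequence, was open in 8.33%, 0%, 1.67% and 4.17% of cells. Tcf12 -21319, which holds 2 Ikaros cores, was open in 14.6%, 0%, 11.7% and 2.78%, again with 1 high and 1 low run at each time-point. Tcf12 +11788 was open in 7 cells.

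The single region of Tcf4 lay 1062 bp downstream of its outermost start and 71 bp upstream of another annotated transcript start. It was open in 6.25%, 6.38%, 15% and 11.1% of cells, higher in both 24-hour runs, and in 36.4, 62.7, 105 and 88 normalised CPM. The log2 change was 1.00 (SE 0.75), with an adjusted p of 0.639 by edgeR. Thinned cells gave 0%, 4.35%, 4.26% and 6.35%, where the time-points overlapped. Beyond the 50-kb limit, 2 more Tcf4 regions lay at annotated transcript starts, and their values lay in the other direction. The region 72290 bp downstream was open in 10.4%, 8.51%, 1.67% and 2.78% of cells, with a log2 change of -1.35 (SE 1.08). The region 250018 bp downstream was open in 12.5%, 6.38%, 8.33% and 1.39%, with a log2 change of -0.80 (SE 0.96).

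Of the inhibitor genes, Id2 had the more often detected promoter region and Id3 the more often detected distal regions. The share of cells with any of the 3 regions of the gene was 29.2%, 10.6%, 18.3% and 15.3% for Id2 and 29.2%, 10.6%, 11.7% and 9.72% for Id3. The Id2 promoter region (chr12:25096141-25096261), 939 bp downstream of the outermost start and 109 bp upstream of a further transcript start, was open in 22.9%, 10.6%, 15% and 15.3% of cells, and the time-points overlapped. The Id3 promoter region (chr4:136143729-136143799) was open in 4.17%, 2.13%, 3.33% and 1.39%, in 6 cells in all, and 3.43% of all promoter regions were open in fewer cells. Id3 +4471, beyond the end of the gene, was open in 12.5%, 6.38%, 6.67% and 8.33% of cells, above the promoter region in each run. Id3 +1265, in the intron, was open in 18.8% of cells of run 1 and in 1.39% to 2.13% of the other 3 runs, so 9 of its 10 cells at 0 hours came from 1 run. The distal regions of Id2 were open in 5 and 6 cells.

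Lef1 +7621, in an intron, was the most often detected region of Lef1 and was open in 14.6%, 12.8%, 3.33% and 11.1% of cells. In thinned cells its shares were 2.08%, 13%, 4.26% and 11.1%, and the time-points overlapped, which they did not in the unthinned shares. Lef1 +1997 (chr3:131112398-131112538) lay 329 bp upstream of another annotated Lef1 transcript start. It was open in 10.4%, 4.26%, 5% and 0% of cells, and in normalised CPM the 0-hour runs, at 48.5 and 41.8, lay above the 24-hour runs, at 32.3 and 0. Thinned cells gave 4.17%, 0%, 4.26% and 0%, where the time-points overlapped, and a log2 change of -0.65. Unthinned, the log2 change was -1.48 (SE 1.19), with an adjusted p of 0.672 by edgeR. Without run 4 it was -0.48, and without run 3, which leaves no 24-hour count, the fitted value was -5.62. The other 2 regions of Lef1 were open in 5 cells each.

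Bach2 had 6 regions of low and similar level, open in 5 to 14 cells. The promoter region Bach2 -185 (chr4:32238545-32238694) was open in 6.25%, 6.38%, 11.7% and 1.39% of cells, and the 24-hour runs were the highest and the lowest of the 4. Bach2 +10477 was open in 8.33%, 4.26%, 1.67% and 5.56%. Its neighbour Bach2 +11152 was open in 14.6%, 4.26%, 1.67% and 0% of cells, or in 9.47% at 0 hours (95% interval 4.42 to 17.2) and 0.758% at 24 hours (0.0192 to 4.15). The log2 change of Bach2 +11152 was -3.18 (SE 1.51), with an unadjusted p of 0.0404 and an adjusted p of 0.376 by edgeR. Of its 10 cells, 7 came from run 1. The change was -2.13 without run 1, and -5.56 without run 3, where no 24-hour count is left.

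At Runx1 the values of the promoter and of the distal introns lay in opposite directions, and none passed the test. Runx1 +33 (chr16:92826042-92826191), at the start site, was open in 12.5%, 4.26%, 11.7% and 19.4% of cells, where run 1 lay above run 3. In normalised CPM it stood at 54.6, 20.9, 80.9 and 154, with no overlap of the time-points. The log2 change was 1.53 (SE 0.74), with an unadjusted p of 0.0428 and an adjusted p of 0.385 by edgeR. Thinned cells gave 2.08%, 2.17%, 10.6% and 9.52%, without overlap. Runx1 +18215 was open in 8.33%, 8.51%, 3.33% and 0% of cells, with a log2 change of -1.95 (SE 1.24) and an adjusted p of 0.563. Without run 4 the change was -0.94, and without run 3, where no 24-hour count is left, -5.69. Runx1 +2386 was open in 20.8% of cells of run 1 and in 0%, 1.67% and 0% of the others, so 10 of its 11 cells came from 1 run and the time-points overlapped. Runx1 +24341 was open in 6 cells.

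**Figure D2:**
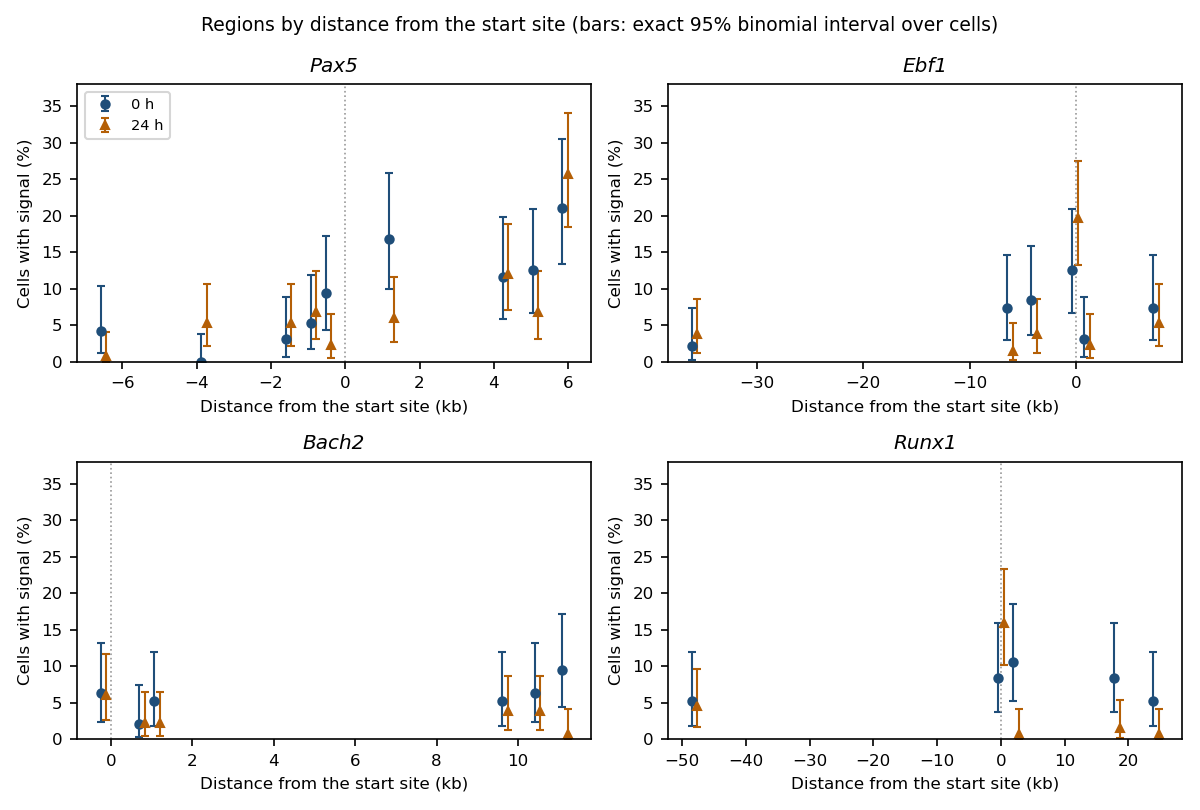
Share of cells with signal at 0 hours (circles) and 24 hours (triangles), in percent (y axis), against the distance of the region from the start site in kb (x axis), for the 4 genes with 5 or more regions, with exact 95% binomial intervals over the cells of a time-point. Symbols of a region are set slightly apart. The Pax5 signal is highest at 5914 bp downstream of the start site, and the Ebf1 and Runx1 signals at 24 hours are highest at the start site.

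None of the 41 regions differed between the time-points at an adjusted p of 0.05 by edgeR. Over all 20103 regions 0.0398% were called higher at 24 hours and 0.0149% higher at 0 hours, which is under 1 region in 41. At an unadjusted p of 0.05, 3 of the 41 regions were higher at 24 hours (Pax5 -3808, Ebf1 -104 and Runx1 +33), against 5.11% of all regions, and 2 were higher at 0 hours (Bach2 +11152 and Runx1 +2386), against 7%. DESeq2 called none of all regions. Its unadjusted p was 0.05 or less for 1 of the 41, higher at 24 hours, against 2.25% of all regions in that direction and 3.15% in the other. In normalised CPM, 7 of the 41 regions had their 24-hour runs above the 0-hour runs without overlap, against 19.3% of all regions. The opposite held for 9 regions, against 25.7%. These shares were close to the background. Promoter regions had a median log2 change of 0.43 against 0.33 over all promoter regions, and distal regions -0.61 against -0.43 over all distal regions.

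In run 4, 12 of the 31 distal regions had no cell, against 19.7% of all distal regions. The corresponding numbers in runs 1, 2 and 3 were 1, 6 and 1, against 3.75%, 12.3% and 11.6%. Of the 10 promoter regions 0 had no cell in run 4, against 5.06% of all promoter regions, and 3 had none in run 2, against 10.3%. Without run 4, 6 of the 7 distal sums of a gene with a log2 change below 0 were still below 0, but of other size. Id2 went from -1.47 to -0.48 and Bach2 from -0.83 to -0.27, nearer to 0. Lef1 went from -0.42 to -1.42, Ebf1 from -0.54 to -0.71 and Id3 from -0.82 to -0.96, farther from 0. Runx1 went from -1.46 to -1.31, and Tcf12 from -0.22 to 0.36.

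Counts were then summed over the promoter regions and over the distal regions of each gene, which gave 8 promoter sums and 9 distal sums. None of the 17 passed an adjusted p of 0.05 by edgeR, where 0.138% of all 12302 sums were called higher at 24 hours and 0.171% higher at 0 hours. At an unadjusted p of 0.05, 1 sum was higher at 24 hours, the Ebf1 promoter, against 5.62% of all sums. Likewise 1 was higher at 0 hours, the Runx1 distal sum, against 6.58%. DESeq2 called none of the 12302 sums, and at an unadjusted p of 0.05 none of the 17, against 2.24% of all sums higher at 24 hours and 3.38% higher at 0 hours. The Ebf1 promoter sum was 98, 75.6, 154 and 241 CPM in runs 1 to 4, a log2 change of 1.15 (SE 0.57, adjusted p = 0.405 by edgeR). The Runx1 distal sum was 231, 113, 72.4 and 56.2 CPM, a log2 change of -1.46 (SE 0.63, adjusted p = 0.307 by edgeR). This change came to -0.82 without run 1, -0.75 with transcript starts, -0.92 with promoters within 2.5 kb and -2.81 with regions within 20 kb. The Pax5 distal sum, the largest of the 17, was 469, 441, 606 and 538, with a log2 change of 0.33 (SE 0.35). Of the promoter sums 6 of 8 had a log2 change above 0, where 62.8% of all promoter sums did, and their median was 0.29 against 0.27. Of the distal sums 2 of 9 were above 0, those of Pax5 and Tcf4, where 34.5% of all distal sums were. The median of the 9 was -0.54 against -0.47. When any annotated protein-coding transcript start counted, the Pax5 distal sum came to 0.14 and that of Tcf4 to -1.43.

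**Figure D3:**
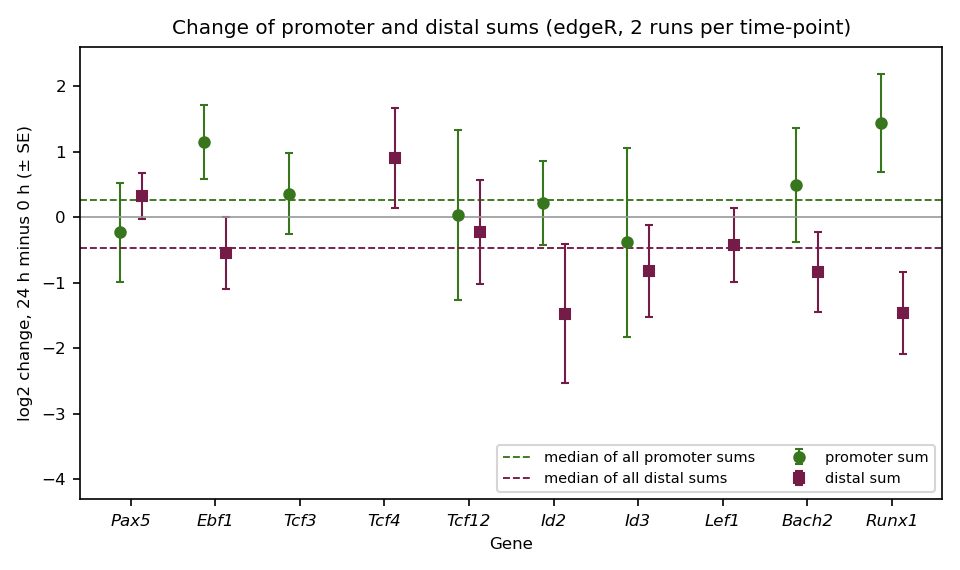
log2 change from 0 to 24 hours (y axis) of the promoter sum (circles) and the distal sum (squares) of each gene (x axis), with the standard error from edgeR, 2 runs per time-point. The dashed lines are the medians over all promoter sums (0.27) and all distal sums (-0.47), and the bars of the Ebf1 and Runx1 promoter sums and of the Pax5, Tcf4 and Runx1 distal sums do not reach the line of their kind.

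Promoter and distal regions of a gene were next compared within each run, where both share cells and depth. Both kinds were found for 7 of the 10 genes and for 2409 genes in the matrix. The mean share of cells per promoter region was above that per distal region in all 4 runs for 3 of the 7 genes, Ebf1, Id2 and Runx1, against 31% of all such genes, and below it in all 4 runs for 2, Pax5 and Id3, against 4.94%. Id2 had the largest mean difference over the 4 runs, 15.6, 9.57, 12.5 and 15.3 percentage points in runs 1 to 4 with the promoter higher (mean 13.2 ± 2.82, SD, n = 4 runs). Ebf1 had 10, 3.83, 13.3 and 18.9 points (11.5 ± 6.3), above Id2 in runs 3 and 4. Runx1 had 1.56 and 0.532 points at 0 hours and 9.58 and 17.7 points at 24 hours (7.35 ± 8.01), above Id2 in run 4. For Pax5 the distal regions were higher by 1.04, 4.1, 2.5 and 5.85 points, and for Id3 by 11.5, 2.13, 0.833 and 3.47 points. Over all genes with both kinds the median of the mean difference was 3 points with the promoter higher. For each of these 5 genes the two-sided exact sign-flip permutation test over the 4 runs gave p = 0.125, the smallest p that 4 runs allow, so that no gene could pass 0.05 among the 7 tested. Tcf12 gave p = 0.5 and Bach2 p = 0.75 by the same exact test, with differences in both directions. When any annotated protein-coding transcript start counted, Pax5 +5914 became a promoter region, and Pax5 then had its promoter above its distal regions in all 4 runs, so the order at Pax5 depended on which start was used. In thinned cells 1 gene, Id2, kept its promoter above its distal regions in all 4 runs. Neither Pax5 nor Id3 kept its promoter below in all 4 runs of thinned cells. In run 1 the thinned Pax5 promoter regions stood at 4.17% and 8.33%, above the mean of its distal regions. In run 3 the thinned Id3 promoter region stood at 2.13% and its distal regions at 0% and 4.26%, so their means tied.

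**Figure D4:**
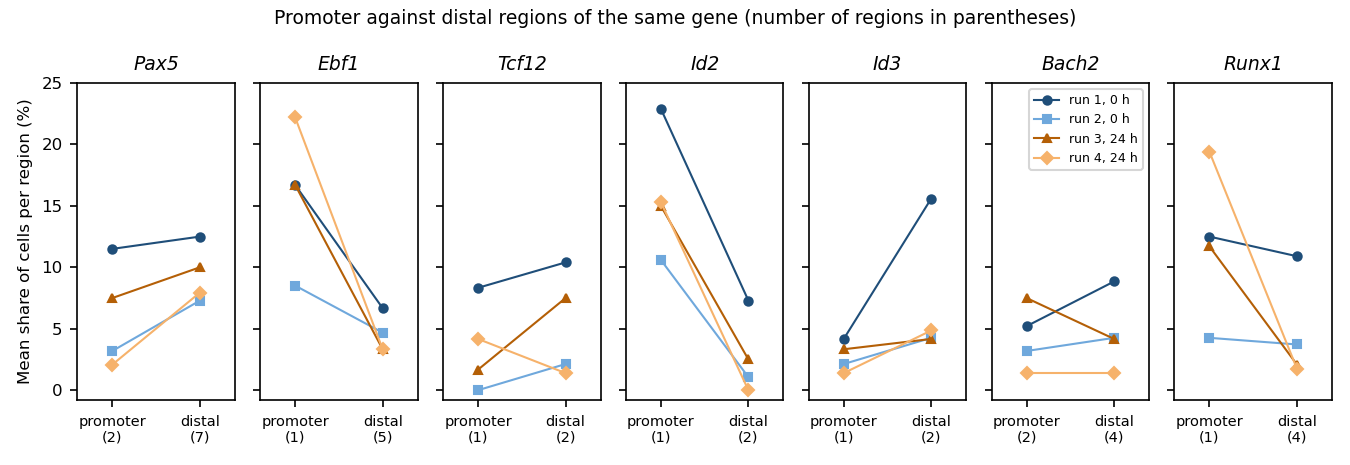
Mean share of cells per region, in percent (y axis), for the promoter and the distal regions of the 7 genes with both kinds (x axis, number of regions in parentheses). Each line is 1 C1 run. All 4 lines fall from promoter to distal for Ebf1, Id2 and Runx1 and rise for Pax5 and Id3.

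Whether the balance between distal and promoter signal shifted with time was tested by edgeR with the run as a block. Promoter and distal sums were scaled separately, each to its own totals over all genes with both kinds. A value is therefore relative to these genes as a whole, whose median value was -0.11. It can differ from the gap between a gene's own sums. For Id3 it was 0.33, where the distal sum changed by -0.82 and the promoter sum by -0.38. None of the 7 genes passed an adjusted p of 0.05, and neither did any of the 2409 genes (0% called). At an unadjusted p of 0.05 Runx1 alone of the 7 did, against 7.64% of all genes, with a log2 change of the distal against the promoter signal of -2.20 (SE 1.06) and an adjusted p of 0.645. This value came to -0.72 with promoters within 2.5 kb and -0.51 with transcript starts, where the Runx1 promoter sum came to 0.23 and 0.44 in place of 1.44, and to -3.63 with regions within 20 kb. The value for Pax5 was 1.30 (SE 0.79), in the other direction, with an adjusted p of 0.753 by edgeR. It came to 0.56 without run 4, 2.30 without run 3, 0.51 with transcript starts and 2.88 with promoters within 500 bp.

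The 50-kb limit left out many regions of the long genes. A further 38 regions had one of the genes as the nearest start but lay farther away, 10 at Runx1, 8 at Ebf1, 5 at Id2, 4 each at Tcf4, Lef1 and Bach2, and 3 at Tcf12, and 20 of them lay within the gene. In normalised CPM, 16 of the 38 were higher in the 0-hour runs without overlap (6 at Runx1, 3 each at Tcf4 and Bach2, and 2 each at Ebf1 and Lef1) and 2 in the 24-hour runs, against 41% and 10.4% of all 3344 regions beyond 50 kb, and their median log2 change was -0.89 against -0.75. Ebf1 +275747, within the gene, was open in 16.7%, 12.8%, 8.33% and 6.94% of cells. Runs 1 and 2 were there at or above their shares at the Ebf1 promoter. The region just inside the limit was Runx1 -48084, open in 8.33%, 2.13%, 1.67% and 6.94% of cells, and the nearest outside was Lef1 -52955, at 10.4%, 4.26%, 1.67% and 8.33%. Of the regions left out, 2 at Runx1 lay near a second annotated transcript start of that gene, deep within it. The region 128752 bp downstream of the outermost start, 69 bp upstream of that second start, was open in 10.4%, 2.13%, 6.67% and 11.1% of cells. Its neighbour at 129375 bp was open in 20.8%, 8.51%, 11.7% and 0%, and for both the time-points overlapped.

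Target genes and partners of the same factors were described in the same way. The list of B-lineage target genes held 18 genes, of which 16 had 38 regions, and none was called in either direction by edgeR. At an unadjusted p of 0.05, 0 of the 38 were higher at 24 hours and 3 at 0 hours, against 5.11% and 7% of all regions. The promoter region of Pou2af1, a B-cell coactivator, was open in 22.9%, 6.38%, 3.33% and 1.39% of cells, a log2 change of -2.85 (SE 1.01, adjusted p = 0.237 by edgeR). That of Il7r, the interleukin-7 receptor of early B cells, was open in 16.7%, 8.51%, 1.67% and 1.39%, a log2 change of -2.69 (SE 1.04, adjusted p = 0.275 by edgeR). In the other direction Cd24a +913 had a log2 change of 1.70 (SE 1.02, adjusted p = 0.534 by edgeR) and Foxo1 -27 of 1.38 (SE 0.91, adjusted p = 0.58 by edgeR). The list of family relatives and partners held 16 genes, of which 10 had 20 regions. None of these was called by edgeR, and 1 of the 20 in each direction had an unadjusted p of 0.05 or less, against the same 5.11% and 7%. Runx3 +10677, at the closest relative of Runx1 in the list, was open in 25%, 14.9%, 6.67% and 0% of cells (log2 change -1.95, SE 0.86, adjusted p = 0.329 by edgeR). Ctnnb1 +4175, at the gene for the beta-catenin partner of Lef1, was open in 4.17%, 2.13%, 11.7% and 16.7% (log2 change 2.42, SE 0.96, adjusted p = 0.297 by edgeR). At Bach1, Bach1 +101 had a log2 change of 0.91 (SE 0.84, adjusted p = 0.723 by edgeR) and Bach1 +1189 one of -1.85 (SE 0.94, adjusted p = 0.426 by edgeR). The median log2 change was -0.30 for regions of the target genes and -0.02 for those of the relatives, against -0.06 over all regions and -0.29 over the 41.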

How the data were processed

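Single-cell ATAC-seq of 4 C1 runs was used, and the bulk samples were not analysed here. The authors mapped reads to mm10 with Bowtie2, removed duplicates with Picard, filtered cells on their number of fragments, and called peaks on bulk samples with HOMER. They deposited raw counts of 20103 regions, each detected in at least 5 cells. No value exceeds 2, and how larger values were handled was not given in the sources used here. Coordinates are printed as deposited. Genes came from GENCODE vM21 on GRCm38.p6.

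Counts were summed per run and tested across all regions, and across the promoter and distal sums of all genes, with edgeR 4.0.16 in R 4.3.3 (quasi-likelihood test, TMM, Benjamini-Hochberg, threshold 0.05). Distal against promoter balance was tested with the run as a block and the 2 kinds of sum scaled separately. DESeq2 1.42.0 was an alternative. Exact sign-flip tests used SciPy 1.17.1. Thinning drew 837 counts per cell, the 10th percentile. BLAST 2.17.0 found 1 genomic copy of each of the 41 regions, at 90% identity over 80% of the region. The fits were also run on simulated data, and the outcome is not given here.

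The genes, gene lists, rules and tests were chosen with earlier results of these data known. Changes with errors were given for up to 4 regions per direction with the largest change, among those in at least 10 cells whose runs did not overlap, and for up to 2 per direction in each gene list. Regions and sums with an unadjusted p of 0.05 or less, and Pax5 -3808, were named after their values were seen. Each share of cells is limited by the 47 to 72 cells per run, and a count of 0 allows up to 3 counts. Alternatives were other scalings, filters, start sites and limits, each run left out, and a replicate block.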

Additional observations from a re-analysis of the deposited data

How the results depend on the processing

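No region or sum of the 10 genes passed an adjusted p of 0.05 under any alternative that kept all 4 runs, by edgeR or DESeq2. Neither did any balance, which was fitted by edgeR alone and under fewer alternatives. Of the 41 regions 9 were open in at least 10% of cells, and the fit of such regions alone also called none. Scaling by the number of cells in place of TMM moved the median log2 change of all regions from -0.06 to -0.51. The labels number the runs 1 to 4, while the columns number them 1 and 2 within each time-point, with no stated meaning. Across all regions the differences between the 2 runs of a time-point had a correlation of -0.01 between time-points. A replicate block from the column numbers, added after seeing the data, gave 0 calls among the 41 regions and 0 among the 17 sums, with 11 calls over all regions as without it and 0 over all sums against 38. Of 32 single results over 444 alternatives, 407 kept their direction and 37 did not (4 of them under the number of cells), and 17 results kept it throughout. The cause of the reversals was not tested.

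Genes with the promoter above the distal regions in all 4 runs numbered 3, and 1 with promoters within 2.5 kb or in thinned cells. With the other start sites, limits and units they numbered 2 to 4, and Id2 was among them under each setting that left it both kinds of region. With promoters within 500 bp it has no promoter region. Regions with the 24-hour runs higher without overlap numbered 7, but 3 by share of cells, 4 by counts per cell and 8 by share of thinned cells. Those with the 0-hour runs higher numbered 9, but 12, 10 and 4 by the same measures, which were added after seeing the data. Over all regions these gave 8.59%, 8.94% and 14.7% for 24 hours and 33.7%, 32.8% and 20% for 0 hours.

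The following log2 changes reversed. With transcript starts, they were 0.38 for the Pax5 promoter sum, -1.43 for the Tcf4 distal sum and -0.06 for the Tcf12 balance of distal against promoter. With the number of cells as offset, they were -0.07 for the Pax5 distal sum and -0.13, -0.50 and -0.20 for the Tcf3, Tcf12 and Id2 promoter sums, but this scaling moved the median of all sums from 0.05 to -0.34, and all of these but Tcf12 stayed above that median. In thinned cells, they were -0.03 and 0.05 for the Pax5 and Lef1 distal sums and 2.23 for the Id3 promoter sum. The Tcf12 promoter sum was also -0.01 with run totals, -0.05 with detected or not detected, and -0.04 within 20 kb, where the Tcf12 balance was -1.39. The Id2 promoter sum was -0.05 among regions in 10% of cells, the Id3 balance -0.03 with detected or not detected, and the Bach2 balance 0.14 with promoters within 2.5 kb and 0.09 within 100 kb.

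With each run left out in turn, promoter sums ranged from -1.13 (without run 3) to 0.30 for Pax5, from -0.13 to 1.38 for Tcf3, from -1.56 (without run 4) to 4.67 (without run 1) for Tcf12, from -0.04 to 0.41 for Id2, from -1.41 to 0.25 for Id3 and from -1.59 (without run 3) to 1.33 for Bach2. Distal sums ranged from -1.26 to 0.75 for Tcf12, from -1.29 to 0.09 for Id3, from -1.42 to 0.14 for Lef1, from -5.90 (without run 3) to -0.21 (without run 1) for Id2, from -1.77 (without run 3) to -0.27 for Bach2, from -1.83 to -0.82 for Runx1, from 0.48 (without run 1) to 1.33 for Tcf4 and from 0.21 (without run 3) to 0.41 for Pax5. The Runx1 promoter sum ranged from 0.91 (without run 4) to 2.30 (without run 1). The balance ranged from -3.14 to 2.28 for Tcf12, from -5.85 to 0.07 for Id2, from -0.74 to 1.56 for Id3 and from -1.13 to 0.78 for Bach2. Among single regions, the change ranged from 0.97 (without run 4) to 2.46 (without run 1) for Runx1 +33, from 0.86 to 1.79 for Pax5 -1527, from 0.85 (without run 4) to 1.53 for Ebf1 -104 and from 0.63 (without run 1) to 1.38 for Tcf4 +1062. With no count at a time-point, as in Tcf12 promoters without run 1 and Id2 distal regions without run 3, the value depends on the prior count. In these fits the lone run of a time-point is assumed to vary like the others.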
